A study of Homo sapiens with 54 samples.

Results

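Tubulins are the building blocks of microtubules, and the 10 alpha and beta tubulin genes described here are TUBA1A, TUBA1B, TUBA1C and TUBA4A (alpha) and TUBB, TUBB2A, TUBB2B, TUBB3, TUBB4B and TUBB6 (beta). They were chosen by symbol and make up 10 of the 58870 genes in the deposited table, which also holds other alpha and beta tubulins, TUBAL3 and TUBB4A among them. The study sequenced RNA of A549 cells, an established human lung cancer line, that stably carried either an insertless (empty) vector or one expressing USP18, the protease that removes the ubiquitin-like protein ISG15 from its targets. Both kinds of cells received vehicle (DMSO) or 1 of 3 small molecules known from the labels by code alone: CP2 at 2 or 5 µM, CP14 at 1, 2.5 or 5 µM, and CP18 at 1, 2.5 or 5 µM, each for 48 h. This made 18 groups of 3 libraries, 54 in all, with a vehicle group for each vector. Each vector is represented by 1 engineered cell population, so vector and population cannot be told apart, and the labels do not say that the 3 replicates of a group came from separate cultures (the study's methods mention independent repeats in general and for other assays, but not for the RNA sequencing), so the p-values measure spread between these samples.

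Alpha and beta tubulin pair into the dimers that microtubules are assembled from, and the human genome encodes several isotypes of each, differing most in the acidic tail at the end of the protein where enzymes and microtubule-associated proteins act. Widely made isotypes such as TUBA1B and TUBB build the spindle of dividing cells, while TUBA4A and TUBB3 are best known from platelets and neurons, and TUBB3 is often studied in tumors treated with microtubule drugs. Cells also watch their supply of free dimers: excess tubulin triggers decay of tubulin messages while they are being translated, through TTC5, which recognises the first residues of the emerging protein.

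Of the alpha genes, 3 lie close together on chromosome 12: TUBA1B (49127782 to 49131397, minus strand), TUBA1A (49184686 to 49189080, minus) and TUBA1C (49188736 to 49274600, plus), on build hg38. TUBA4A lies on chromosome 2, 219249710 to 219277902, minus strand. Among the beta genes, TUBB (30717435 to 30725538, plus), TUBB2A (3153497 to 3157544, minus) and TUBB2B (3223324 to 3231730, minus) lie on chromosome 6. TUBB3 lies on chromosome 16, 89921392 to 89938761, TUBB4B on chromosome 9, 137241287 to 137243707 and TUBB6 on chromosome 18, 12307669 to 12344320, all on the plus strand. The last 60 coding bases before the stop codon are printed for the beta members that the comparisons turn on, because they differ most in this acidic tail and because it shows which of them share sequence. Each is written 5′ to 3′ on the strand of its gene in hg38, with codons for acidic residues (GAA, GAG, GAT and GAC) in capitals.
TUBB, chr6:30724335-30724394, plus strand: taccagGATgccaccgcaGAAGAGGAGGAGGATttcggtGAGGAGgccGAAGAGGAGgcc
TUBB2A, chr6:3153866-3153925, minus strand: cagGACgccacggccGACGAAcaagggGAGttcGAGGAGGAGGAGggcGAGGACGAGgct
TUBB2B, chr6:3224754-3224813, minus strand: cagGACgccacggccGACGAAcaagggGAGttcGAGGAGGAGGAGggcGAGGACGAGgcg
TUBB3, chr16:89935742-89935801, plus strand: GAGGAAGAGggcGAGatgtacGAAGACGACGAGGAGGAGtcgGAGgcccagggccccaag
TUBB4B, chr9:137243494-137243553, plus strand: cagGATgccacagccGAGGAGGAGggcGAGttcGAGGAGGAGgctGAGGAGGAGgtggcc

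Among these, TUBB2A and TUBB2B differed at 1 of the 60 bases, and they shared 98.2% of their coding bases. Of the 20 codons in each tail, 11 were for acidic residues in every beta gene. TUBA1A and TUBA1B shared 97.2% of their coding bases, although TUBA1B was by far the more abundant message. Between members, 56.6% of the 50-base windows of TUBA1B, 47.1% of TUBA1A, 26.7% of TUBA1C, 59.5% of TUBB2A and 49.8% of TUBB2B also occurred in another member. The same share was 8.99% for TUBB3, 6.21% for TUBB4B, 1.09% for TUBB6 and 0 for TUBB and TUBA4A. Counts of TUBA1A, TUBA1B, TUBA1C, TUBB2A and TUBB2B therefore rest on how RSEM divided reads that fit more than 1 of them. Annotated neighbours add to this: TUBB3 overlaps another protein-coding gene on its own strand over 14701 bases, TUBA4A overlaps TUBA4B over 18955 bases of the opposite strand, TUBB6 overlaps AFG3L2 over 15377 bases of the opposite strand, TUBA1A and TUBA1C overlap over 345 bases on opposite strands, and the strand setting of the counting is not stated.

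Levels are given as CPM, each library's counts scaled to a common total and then by TMM between libraries, and fold changes as log2 of a ratio of such levels. Library totals ran from 16673228 to 25609062 counts, and every member had at least 143 counts in every library, so all 10 passed the filter on low counts in every fit. The vector labels held: USP18 measured 10.5, 10.7 and 11.1 CPM in the libraries of empty-vector cells with vehicle and 1312, 1301 and 1336 CPM in those of USP18 cells. Its level in USP18 cells also moved with treatment. It rose to 1953, 2115 and 2055 CPM with CP14 at 5 µM, and was below vehicle with CP18 at 1 µM (1009.5, 1003 and 953 CPM), CP14 at 1 µM (1053, 1069 and 1014 CPM), CP18 at 2.5 µM (1075, 1086 and 1041 CPM) and, with means of 1121, 1189.6 and 1238 CPM, CP18 at 5 µM, CP14 at 2.5 µM and CP2 at 2 µM. In the 3 lowest of these groups, 9, 8 and 10 of 10 tubulins of USP18 cells rose (7.74%, 7.40% and 7.19% of all genes). With CP18 at 5 µM 10 of 10 rose (4.32%). With CP2 at 5 µM 10 of 10 tubulins rose too (8.65%), while USP18 (1254, 1257 and 1331 CPM) overlapped vehicle. With CP14 at 2.5 µM, where USP18 was below vehicle, 2 tubulins rose (16.3%) and 3 fell (16.4%). With CP2 at 2 µM, where USP18 was also below vehicle, 0 of 10 were called (1.13% either way). The part of the USP18 level in these changes was not tested. Markers fitted an epithelial line of this kind, with KRT8 at 6148 CPM, KRT18 at 5032 CPM, ALDH1A1 at 8739 CPM and NQO1 at 1756 CPM (means, empty-vector cells with vehicle), whereas the surfactant genes SFTPA1 and SFTPB and the T cell gene CD3E were at 0 in all 54 libraries. KRT19 was low, at 4.35 CPM in empty-vector and 27.0 CPM in USP18 cells. EPCAM was also low, at 12.3 CPM in empty-vector and 2.83 CPM in USP18 cells, and CDH1 was 219 and 61.5 CPM. The most abundant markers of other cells in empty-vector cells with vehicle were ABCA3 for alveolar type II cells (52.8 CPM), CD68 for immune cells (36.8 CPM), COL1A1 for fibroblasts (12.4 CPM) and PECAM1 for endothelium (0.132 CPM). Among the vehicle libraries of empty-vector cells, replicate 3 was the highest of its group for 10 of 10 tubulins, by a mean log2 deviation of 0.093, and where the number of tubulins called against vehicle or between the vectors changed without this library, the number without it is given.

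In empty-vector cells with vehicle, the tubulin messages summed to 5003, 4821 and 5379 CPM in the 3 libraries, and in USP18 cells to 5039, 5031 and 5083 CPM. The sums overlapped between the vectors. Alpha genes held 2727, 2617 and 2940.4 CPM of it in empty-vector cells and 2945, 2964 and 2981 CPM in the USP18 cells, and beta genes 2276, 2204 and 2438 and 2094, 2067 and 2102 CPM. Per kilobase of merged exon, the main scale on which members are compared here, TUBA1B led with 535 CPM per kilobase (mean, empty-vector cells), followed by TUBB (385), TUBB4B (210.1), TUBA1C (135), TUBA4A (41.6), TUBA1A (24.0), TUBB3 (23.9), TUBB6 (22.7), TUBB2A (11.9) and TUBB2B (2.00). The means of TUBA1A, TUBB3 and TUBB6 lay close together, and their order is not read as a result because it depends on the length assigned to each gene. On this scale TUBA1B made up 72.7% ± 0.286 (SD) of the alpha messages and TUBB 58.7% ± 0.0872 of the beta messages in empty-vector cells. In USP18 cells these shares were 74.6% ± 0.256 and 55.0% ± 0.196, and TUBB4B held 32.0% ± 0.0783 of the beta messages in empty-vector and 37.8% ± 0.0252 in USP18 cells (a description, without a test).

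**Figure D1:**
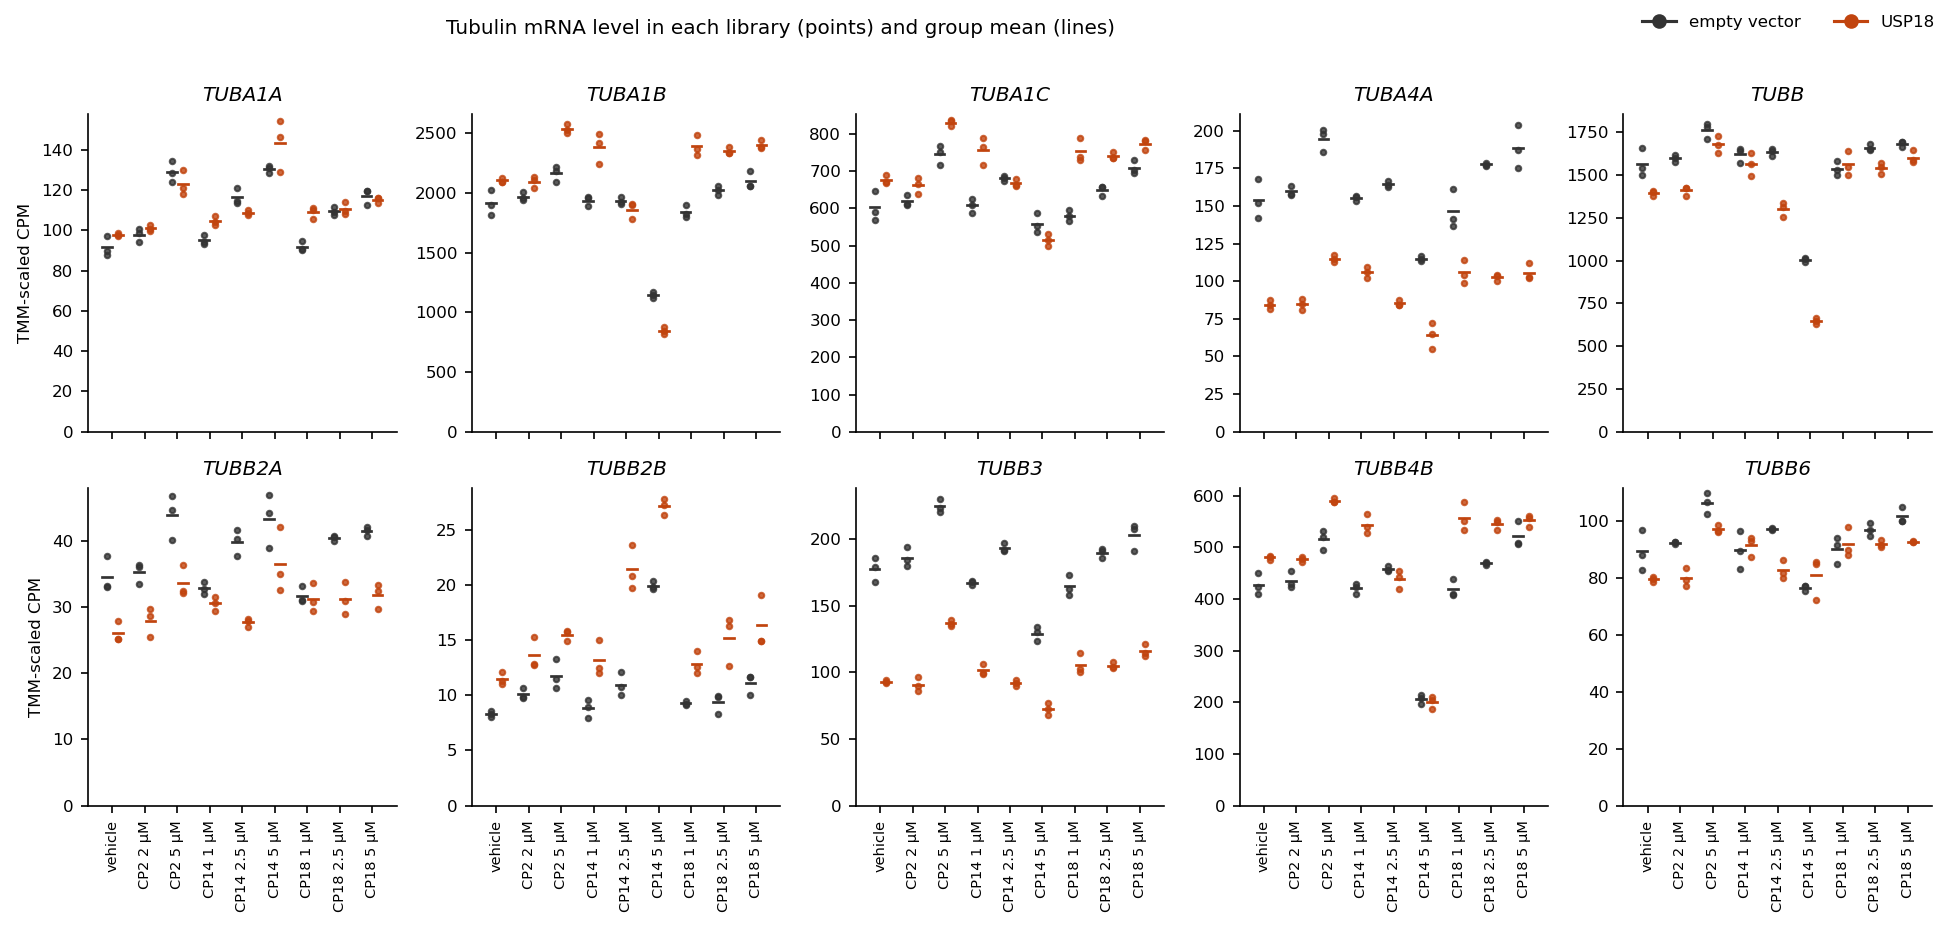
Level of each tubulin gene in every library, by compound, dose and vector. Each point is 1 library, in CPM after TMM scaling.

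TUBA1B, an alpha-tubulin made widely across tissues, averaged 1913 ± 107 CPM (SD, n = 3) in empty-vector cells and 2105 ± 16.9 CPM in the USP18 cells with vehicle. With CP2, TUBA1B averaged 1969 ± 35.4 and 2164 ± 62.6 CPM at 2 and 5 µM in empty-vector cells, and 2096 ± 45.5 and 2535 ± 36.3 CPM in USP18 cells. With CP14, TUBA1B averaged 1937 ± 41.1, 1932 ± 31.6 and 1144 ± 27.6 CPM at 1, 2.5 and 5 µM in empty-vector cells, against 2384 ± 129, 1859.9 ± 70.5 and 845 ± 30.2 CPM in USP18 cells. With rising CP14 its mean in USP18 cells was first above, then below that of vehicle, and in both kinds of cells it was lowest at 5 µM. With CP18, TUBA1B averaged 1840.0 ± 52.7, 2021 ± 36.7 and 2102 ± 72.2 CPM at those doses in empty-vector cells, and 2390.1 ± 85.8, 2349 ± 28.9 and 2401 ± 33.9 CPM in USP18 cells. TUBA1B means thus spanned a 3.00-fold range, from CP14 5 µM in USP18 cells to CP2 5 µM in USP18 cells. Down the order of TUBA1B means, 6 of 17 steps were larger than the larger SD of the pair, namely those below CP2 5 µM in USP18 cells, CP18 2.5 µM in USP18 cells, CP2 2 µM in USP18 cells, CP18 2.5 µM in empty-vector cells, CP18 1 µM in empty-vector cells and CP14 5 µM in empty-vector cells, and neighbours at the other 11 steps did not differ beyond their spread.

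TUBA1C, another widely made alpha-tubulin, averaged 603 ± 40.4 CPM (SD, n = 3) in empty-vector cells and 676 ± 11.4 CPM in the USP18 cells with vehicle. With CP2, TUBA1C averaged 620.0 ± 14.3 and 745 ± 26.7 CPM at 2 and 5 µM in empty-vector cells, and 662 ± 21.8 and 831 ± 8.59 CPM in USP18 cells. With CP14, TUBA1C averaged 608 ± 17.9, 681 ± 5.85 and 559 ± 25.7 CPM at 1, 2.5 and 5 µM in empty-vector cells, against 757 ± 37.0, 668 ± 10.7 and 515 ± 16.9 CPM in USP18 cells. TUBA1C was the most even of the abundant alpha genes, and its lowest pair of groups were again those with CP14 at 5 µM. With CP18, TUBA1C averaged 581 ± 14.5, 649 ± 12.7 and 709 ± 18.3 CPM at those doses in empty-vector cells, and 753 ± 32.5, 741 ± 8.33 and 774 ± 13.7 CPM in USP18 cells. TUBA1C means thus spanned a 1.61-fold range, from CP14 5 µM in USP18 cells to CP2 5 µM in USP18 cells. Down the order of TUBA1C means, 5 of 17 steps were larger than the larger SD of the pair, namely those below CP2 5 µM in USP18 cells, CP18 2.5 µM in USP18 cells, CP18 5 µM in empty-vector cells, CP18 2.5 µM in empty-vector cells and CP14 5 µM in empty-vector cells, and neighbours at the other 12 steps did not differ beyond their spread.

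TUBB, the class I beta-tubulin of most dividing cells, averaged 1568 ± 80.4 CPM (SD, n = 3) in empty-vector cells and 1397 ± 16.72 CPM in the USP18 cells with vehicle. With CP2, TUBB averaged 1600.3 ± 19.8 and 1765 ± 46.7 CPM at 2 and 5 µM in empty-vector cells, and 1411 ± 26.7 and 1679.8 ± 50.9 CPM in USP18 cells. With CP14, TUBB averaged 1624 ± 44.2, 1637 ± 21.2 and 1006 ± 13.8 CPM at 1, 2.5 and 5 µM in empty-vector cells, against 1563 ± 65.8, 1302 ± 41.3 and 647 ± 18.9 CPM in USP18 cells. The lowest TUBB levels were those with CP14 at 5 µM, and at 2.5 µM the USP18 cells were already below their vehicle mean. With CP18, TUBB averaged 1538 ± 41.6, 1662 ± 19.5 and 1685 ± 17.0 CPM at those doses in empty-vector cells, and 1563 ± 71.7, 1542 ± 32.8 and 1603 ± 37.0 CPM in USP18 cells. TUBB means thus spanned a 2.73-fold range, from CP14 5 µM in USP18 cells to CP2 5 µM in empty-vector cells. Down the order of TUBB means, 6 of 17 steps were larger than the larger SD of the pair, namely those below CP2 5 µM in empty-vector cells, CP18 2.5 µM in empty-vector cells, CP18 1 µM in empty-vector cells, vehicle in USP18 cells, CP14 2.5 µM in USP18 cells and CP14 5 µM in empty-vector cells, and neighbours at the other 11 steps did not differ beyond their spread.

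TUBB4B, a class IV beta-tubulin that is broadly made and abundant in cilia, averaged 428 ± 21.3 CPM (SD, n = 3) in empty-vector cells and 481 ± 3.89 CPM in the USP18 cells with vehicle. With CP2, TUBB4B averaged 435 ± 16.1 and 516 ± 18.2 CPM at 2 and 5 µM in empty-vector cells, and 478 ± 4.77 and 591 ± 3.96 CPM in USP18 cells. With CP14, TUBB4B averaged 421 ± 9.60, 459 ± 5.45 and 207 ± 8.48 CPM at 1, 2.5 and 5 µM in empty-vector cells, against 544 ± 19.3, 439 ± 17.9 and 200.2 ± 12.2 CPM in USP18 cells. TUBB4B was lower with CP14 at 5 µM than in any other treatment, to nearly the same level with either vector. With CP18, TUBB4B averaged 419 ± 18.1, 469 ± 3.24 and 522 ± 24.8 CPM at those doses in empty-vector cells, and 558 ± 27.2, 546 ± 9.97 and 553 ± 11.4 CPM in USP18 cells. TUBB4B means thus spanned a 2.95-fold range, from CP14 5 µM in USP18 cells to CP2 5 µM in USP18 cells. Down the order of TUBB4B means, 6 of 17 steps were larger than the larger SD of the pair, namely those below CP2 5 µM in USP18 cells, CP2 5 µM in empty-vector cells, CP2 2 µM in USP18 cells, CP18 2.5 µM in empty-vector cells, CP14 2.5 µM in empty-vector cells and CP18 1 µM in empty-vector cells, and neighbours at the other 11 steps did not differ beyond their spread.

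TUBB2B, the neuronal copy of class II beta-tubulin, averaged 8.34 ± 0.282 CPM (SD, n = 3) in empty-vector cells and 11.5 ± 0.576 CPM in the USP18 cells with vehicle. With CP2, TUBB2B averaged 10.1 ± 0.506 and 11.8 ± 1.36 CPM at 2 and 5 µM in empty-vector cells, and 13.6 ± 1.43 and 15.5 ± 0.499 CPM in USP18 cells. With CP14, TUBB2B averaged 8.84 ± 0.824, 11.0 ± 1.03 and 19.9 ± 0.364 CPM at 1, 2.5 and 5 µM in empty-vector cells, against 13.2 ± 1.60, 21.4 ± 1.99 and 27.2 ± 0.752 CPM in USP18 cells. With CP14 at 5 µM, and at 2.5 µM in USP18 cells, TUBB2B went the other way from TUBB and TUBB4B, with its highest means in USP18 cells given CP14 at 2.5 or 5 µM and in empty-vector cells given 5 µM. With CP18, TUBB2B averaged 9.27 ± 0.167, 9.39 ± 0.902 and 11.1 ± 0.929 CPM at those doses in empty-vector cells, and 12.9 ± 1.02, 15.2 ± 2.26 and 16.3 ± 2.39 CPM in USP18 cells. TUBB2B means thus spanned a 3.26-fold range, from vehicle in empty-vector cells to CP14 5 µM in USP18 cells. Down the order of TUBB2B means, 2 of 17 steps were larger than the larger SD of the pair, namely those below CP14 5 µM in USP18 cells and CP14 5 µM in empty-vector cells, and neighbours at the other 15 steps did not differ beyond their spread.

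The remaining members had narrower or vector-bound patterns. TUBA1A, an alpha-tubulin best known from developing neurons, averaged between 91.6 CPM (vehicle in empty-vector cells) and 143 CPM (CP14 5 µM in USP18 cells), a 1.56-fold range in which 5 of 17 steps between neighbours exceeded the larger SD. TUBA4A, the alpha-tubulin abundant in platelets, ran from 64.1 CPM (CP14 5 µM in USP18 cells) to 195 CPM (CP2 5 µM in empty-vector cells), with 7 such steps. For TUBB3, the class III beta-tubulin used as a neuronal marker, the empty-vector means stood above every USP18 mean, except that with CP14 at 5 µM, and the range was 72.4 to 225 CPM with 9 such steps. TUBB2A, the class II partner of TUBB2B, ran from 26.0 CPM (vehicle in USP18 cells) to 43.9 CPM (CP2 5 µM in empty-vector cells), with 3 such steps. TUBB6, the class V beta-tubulin, was the flattest of all, from 76.7 to 106 CPM, a 1.39-fold range with 4 such steps, so that most of its neighbouring groups did not differ beyond their spread.

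With vehicle alone, USP18 cells carried less TUBA4A and TUBB3 than empty-vector cells, and a little more TUBB2B, while the abundant members differed little. TUBB3 measured 179, 168 and 186 CPM in empty-vector cells and 91.7, 92.5 and 94.2 CPM in the USP18 cells. TUBA4A measured 152, 142 and 168 CPM and 84.2, 81.6 and 87.6 CPM in the same order. Both genes were high in every empty-vector library and low in every USP18 library, so the groups did not overlap for either gene. TUBB2B, the least abundant member, measured 8.05, 8.34 and 8.62 CPM against 11.3, 12.1 and 11.0 CPM, again without overlap. In the edgeR quasi-likelihood test with Benjamini-Hochberg adjustment, 9 of 10 members differed between the vectors at an adjusted p under 0.05, 4 higher in USP18 cells (against 29.0% of the 15252 genes tested) and 5 lower (against 28.7%), in a table where most tested genes differed. The decreases were TUBB3 (log2 fold change -0.95, SE 0.034, adjusted p = 7.4e-14), TUBA4A (log2 fold change -0.88, SE 0.046, adjusted p = 1.8e-11), TUBB2A (-0.42), TUBB6 (-0.18) and TUBB (-0.18). The increases were TUBB2B (log2 fold change 0.45, SE 0.091, adjusted p = 3.6e-04), TUBB4B (0.16), TUBA1C (0.15) and TUBA1B (0.13), and TUBA1A did not pass (0.082, adjusted p = 0.0638). Without replicate 3 of the empty-vector vehicle group TUBA1A passed as well (0.12, 10 of 10 called), as it did with no filter on low counts (0.092). No member differed by more than 1 on the log2 scale. Of 28 genes of the G2 and M phases, described below, 18 were higher and 4 lower in USP18 cells (median log2 fold change 0.14, against -0.0058 over all genes), and their part was not tested. Counted as 1 gene, TUBB2A and TUBB2B were lower in USP18 cells (log2 fold change -0.21), a sum that is mostly TUBB2A and so does not show how reads were divided between the pair.

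With CP2 no tubulin passed the test at 2 µM, and all of them rose at 5 µM, with either vector. TUBA1B measured 1896, 1815 and 2027 CPM with vehicle and 2095, 2217 and 2179.8 CPM with CP2 at 5 µM in empty-vector cells, and 2095, 2096 and 2125 CPM and 2526, 2503 and 2574 CPM in USP18 cells. The treated libraries were all above the vehicle libraries in both kinds of cells. TUBB3 measured 220.1, 223 and 230.3 CPM with CP2 at 5 µM in empty-vector cells and 136, 139.5 and 134 CPM in the USP18 cells, above its vehicle libraries given above. At 2 µM, edgeR's quasi-likelihood test called 0 of 10 members in empty-vector cells (1.84% of all genes; 2 at an unadjusted p under 0.05, 0 by DESeq2) and 0 in USP18 cells (1.13%; 1 at an unadjusted p under 0.05, 0 by DESeq2), and its interaction with USP18, the difference between the changes in USP18 and empty-vector cells, called 0 (0.0569%; 0 at an unadjusted p under 0.05, 0 by DESeq2). Leaving out replicate 3 of the empty-vector vehicle group gave 1 call at 2 µM in those cells. At 5 µM, 10 of 10 members rose in empty-vector cells (5.31% of 15760 genes rose) and 10 of 10 in USP18 cells (8.65%). The rises in empty-vector cells ran from 0.19 to 0.53 (log2 fold change), led by TUBB2B and TUBA1A (log2 fold change 0.51, SE 0.045, adjusted p = 1.1e-06), and in USP18 cells from 0.25 to 0.55, led by TUBB3 (log2 fold change 0.55, SE 0.039, adjusted p = 1.3e-08). The median member rose by 0.34 and 0.30 while the median of all genes tested was 0.0022 and -0.0099. The interaction at 5 µM called 0 of 10 in edgeR (0.920% of genes; 2 at an unadjusted p under 0.05, 1 by DESeq2), with 1 call when replicate 2 of the empty-vector vehicle group or replicate 3 of the empty-vector group with CP2 at 5 µM was left out. The widest interval of that difference between vectors was that of TUBB2B, -0.37 to 0.16 (95%, log2).

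Tubulins were above vehicle with CP18 as well, in USP18 cells from the lowest dose. In those cells TUBA1B averaged 2390, 2349 and 2401 CPM at 1, 2.5 and 5 µM, TUBA4A 105.9, 102.6 and 105.8, and TUBB4B 558, 546 and 553. For these genes the rise did not grow with dose, while from 1 to 5 µM TUBB2B went from 12.9 to 16.3 CPM and TUBB3 from 105.7 to 116. All doses were read against the same USP18 vehicle group, and an offset of that group itself was not tested. In USP18 cells TUBA4A measured 104, 99.1 and 114 CPM with CP18 at 1 µM against the vehicle libraries at 84.2, 81.6 and 87.6 CPM, whereas in empty-vector cells it measured 142, 136 and 161 CPM against 152, 142 and 168 CPM. Treated libraries were higher than vehicle without overlap in USP18 cells and overlapped it in empty-vector cells. TUBB4B gave the same picture at 1 µM, with 534, 551 and 587 CPM in USP18 cells against 482, 476 and 483 CPM with vehicle, and 409.7, 407 and 439.7 against 423, 409.7 and 451 CPM in empty-vector cells. Only the USP18 libraries were set apart from their vehicle. At 1 µM, edgeR called 0 of 10 members in empty-vector cells (0.368% of genes; 1 at an unadjusted p under 0.05, 0 by DESeq2) and 9 higher in USP18 cells (7.74%), all but TUBB2B. The interaction at 1 µM called 7 members (7.19% of genes either way), all with a larger change in USP18 cells: TUBA1B, TUBA1C, TUBA4A, TUBB, TUBB2A, TUBB3 and TUBB4B, from 0.18 to 0.39 on the log2 scale, the largest being TUBA4A (log2 difference 0.39, SE 0.090, adjusted p = 0.0147). Without replicate 1 of the USP18 vehicle group the 9 calls in USP18 cells fell to 4, and without replicate 3 of USP18 cells with CP18 at 1 µM to 5. The 7 interaction calls fell to 4 without any 1 of these libraries: replicate 3 of empty-vector vehicle, replicates 1 and 3 of USP18 vehicle, replicate 2 of empty-vector cells with CP18 at 1 µM, and replicate 3 of USP18 cells with CP18 at 1 µM.

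At 2.5 µM of CP18, 5 of 10 members rose in empty-vector cells (2.34% of genes), namely TUBA1A, TUBA1C, TUBA4A, TUBB2A and TUBB4B, and 10 of 10 in USP18 cells (7.19%), by 0.13 to 0.41 (log2 fold change). At 5 µM, 9 rose in empty-vector cells (4.09%), by 0.15 to 0.42, and 10 in USP18 cells (4.32%), by 0.18 to 0.50. TUBB was the member that missed at 5 µM in empty-vector cells (0.11, adjusted p = 0.0745). TUBA1A showed the rise in empty-vector cells most clearly, with 87.9, 89.6 and 97.3 CPM with vehicle, 112, 109 and 108 CPM at 2.5 µM and 119, 119 and 113 CPM at 5 µM. Every treated library was above every vehicle library at both doses (log2 fold change 0.36, SE 0.044, adjusted p = 7.2e-05 at 5 µM). In edgeR the interaction called 0 of 10 members at 2.5 µM (0.197% of genes; 0 at an unadjusted p under 0.05, 0 by DESeq2) and 0 at 5 µM (0.268%; 1 at an unadjusted p under 0.05, 0 by DESeq2), with the widest intervals those of TUBB2B, -0.075 to 0.53 and -0.23 to 0.39. Counts in empty-vector cells turned on single libraries: at 2.5 µM the 5 calls became 3 without replicate 1 or 2 of the empty-vector vehicle group or any of the 3 treated libraries, and 9 without replicate 3 of that vehicle group. At 5 µM the 9 calls became 5 without its replicate 1, 4 without its replicate 2 and 10 without its replicate 3, with TUBB added (0.15). In USP18 cells the 10 calls became 8 at 2.5 µM and 9 at 5 µM without replicate 1 of the USP18 vehicle group.

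With CP14 most tubulins rose at 1 µM in USP18 cells, and the abundant members fell at 5 µM with either vector. At 1 µM TUBA4A measured 106, 109.6 and 102 CPM in USP18 cells and 157, 153 and 156 CPM in empty-vector cells, and TUBB4B 539.8, 565 and 527 and 429, 410.4 and 423 CPM. The USP18 libraries of both genes were above their vehicle libraries without overlap, and the empty-vector libraries overlapped theirs. At this dose edgeR called 0 of 10 members in empty-vector cells (0.861% of genes; 1 at an unadjusted p under 0.05, 0 by DESeq2) and 8 higher in USP18 cells (7.40%), all but TUBA1A and TUBB2B, by 0.13 to 0.33 (log2 fold change). The interaction called 3 (5.79% of genes), each with the larger change in USP18 cells: TUBA4A (log2 difference 0.32, SE 0.063, adjusted p = 0.00733), TUBB3 (log2 difference 0.22, SE 0.049, adjusted p = 0.0157) and TUBB4B (log2 difference 0.20, SE 0.042, adjusted p = 0.0101). That count was 7 without replicate 2 of the empty-vector vehicle group and 5 without replicate 3 of USP18 cells with CP14 at 1 µM. It was 8 with no filter on low counts and 2 in one fit of all 54 libraries. The 8 calls in USP18 cells became 6 without replicate 1 of the USP18 vehicle group and 7 in one fit of all 54 libraries. They became 9 without replicate 3 of the empty-vector vehicle group, which shares the fit, with TUBA1A added (0.097).

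At 2.5 µM of CP14 the vectors parted. In empty-vector cells TUBA1A measured 115, 121 and 114 CPM against 87.9, 89.6 and 97.3 CPM with vehicle, and in USP18 cells 109.8, 107 and 108 against 97.1, 97.8 and 98.5 CPM. TUBA1B measured 1922, 1967 and 1906 CPM in empty-vector cells and 1779, 1896 and 1905 CPM in the USP18 cells. TUBA1A libraries were above vehicle with either vector, while TUBA1B libraries lay among the vehicle values in empty-vector cells and below them in USP18 cells. In empty-vector cells 5 of 10 members rose (7.06% of genes), namely TUBA1A, TUBA1C, TUBB2A, TUBB2B and TUBB3, by 0.13 to 0.39 (log2 fold change). In USP18 cells 2 rose (16.3%), TUBA1A (log2 fold change 0.16, SE 0.038, adjusted p = 0.00384) and TUBB2B (log2 fold change 0.91, SE 0.086, adjusted p = 2.6e-07), and 3 fell (16.4%), TUBA1B (log2 fold change -0.17, SE 0.034, adjusted p = 7.2e-04), TUBB4B (-0.13) and TUBB (-0.096). TUBB2B went from 11.3, 12.1 and 11.0 CPM to 23.6, 20.9 and 19.8 CPM in those cells. The interaction called 6 members (8.00% of genes either way), with TUBB2B larger in USP18 cells (0.51) and TUBB4B, TUBA1A, TUBA1B, TUBA1C and TUBB smaller (-0.16 to -0.23). In those USP18 cells 21 of 28 genes of the G2 and M phases fell as well (values below), and their part was not tested. The counts of tubulins called at this dose leaned on single libraries. The 5 calls in empty-vector cells became 3 without replicate 1 or 2 of the empty-vector vehicle group or replicate 1 or 2 of empty-vector cells with CP14 at 2.5 µM, and 9 without replicate 3 of that vehicle group. The 6 interaction calls became 2 without replicate 1 or 2 of empty-vector vehicle, 3 without replicate 2 of USP18 vehicle, and 1 without replicate 3 of USP18 vehicle or replicate 2 of empty-vector cells with CP14 at 2.5 µM.

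**Figure D2:**
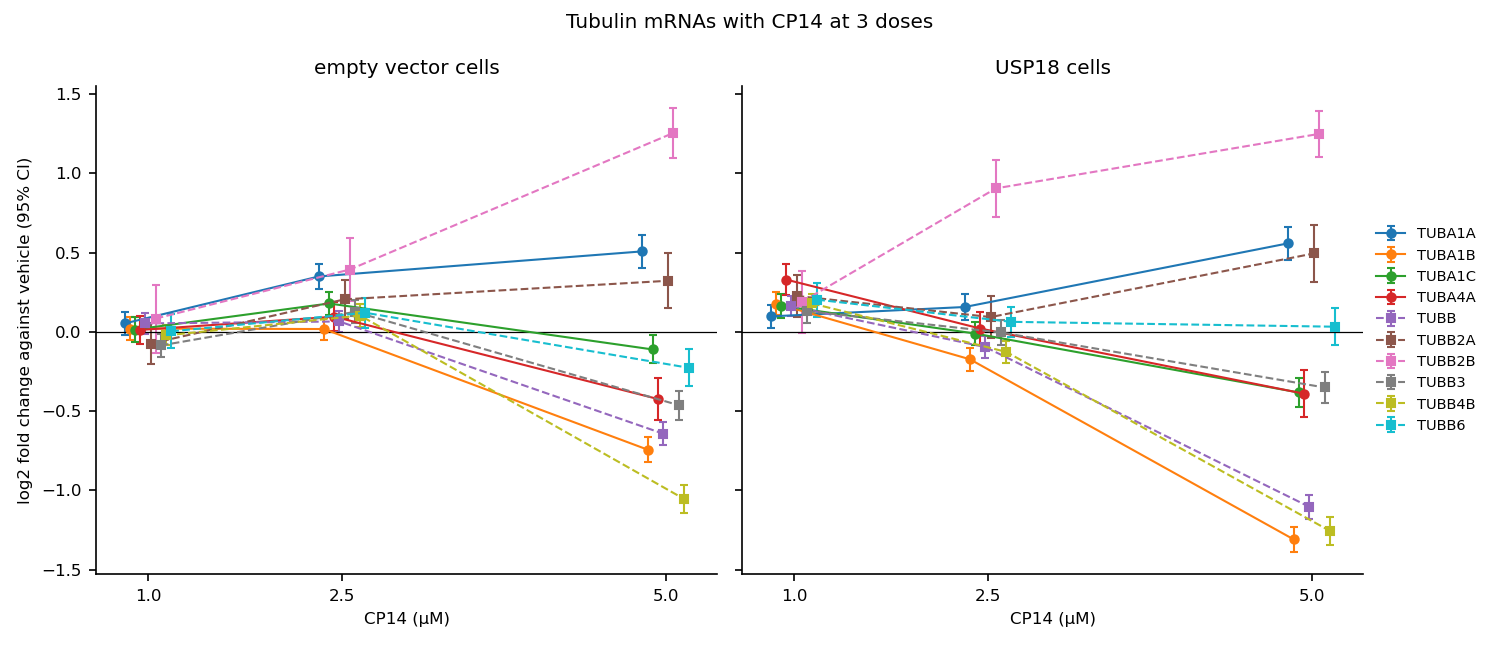
Log2 fold change of each tubulin gene against vehicle over the doses of CP14, in empty-vector and USP18 cells. Bars are 95% intervals.

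At 5 µM CP14 lowered the tubulin pool and left it with a different make-up. Summed over the 10 members, the libraries measured 3351, 3509 and 3428 CPM in empty-vector cells and 2575, 2597 and 2724 CPM in the USP18 cells, below every vehicle library. TUBA1B, the main alpha message, measured 1117, 1172 and 1143 CPM in empty-vector cells, where vehicle libraries were 1896, 1815 and 2027 CPM, and 841, 817 and 877 CPM in USP18 cells, where they were 2095, 2096 and 2125 CPM. All treated libraries were far below vehicle, those of USP18 cells lowest of all. TUBB, the main beta message, measured 989.8, 1015 and 1012 CPM against 1545, 1502 and 1658 CPM in empty-vector cells and 666, 628 and 646 against 1405, 1378 and 1409 CPM in USP18 cells. TUBB4B measured 197, 209 and 213 CPM in empty-vector and 186, 205 and 209 CPM in USP18 cells. For both beta genes the groups did not overlap with their vehicles, and the USP18 libraries of TUBB were below the empty-vector ones while those of TUBB4B were not set apart. TUBA1A and TUBB2B moved up instead. TUBA1A measured 132, 131 and 129 CPM in empty-vector and 129, 146 and 154 CPM in USP18 cells, and TUBB2B 19.6, 20.3 and 19.8 and 26.4, 27.3 and 27.9 CPM. Every one of these libraries was above the vehicle libraries of its own vector, with replicate 3 of the USP18 cells the highest of its group for 9 of 10 members.

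The test over all genes called 10 of 10 members in empty-vector cells with CP14 at 5 µM, 3 higher (31.0% of 15947 genes) and 7 lower (32.1%), and 9 of 10 in USP18 cells, 3 higher (34.4%) and 6 lower (34.3%). With so much of the transcriptome called, the sizes of the changes are given beside the calls. The share of all genes past 1 on the log2 scale was not counted. Numbers of members past that size are therefore no result about the tubulins as a group. Changes over 1 on the log2 scale were those of 2 members in empty-vector cells, TUBB4B (log2 fold change -1.05, SE 0.043, adjusted p = 5.6e-15) and TUBB2B (log2 fold change 1.25, SE 0.075, adjusted p = 3.8e-12), and 4 in USP18 cells, TUBA1B (log2 fold change -1.31, SE 0.038, adjusted p = 1.5e-17), TUBB4B (log2 fold change -1.26, SE 0.043, adjusted p = 1.9e-16), TUBB2B (log2 fold change 1.25, SE 0.070, adjusted p = 9.0e-13) and TUBB (log2 fold change -1.10, SE 0.036, adjusted p = 9.7e-17). In empty-vector cells TUBA1B fell less (-0.74), as did TUBB (-0.64). TUBA1A rose in both (0.51 and 0.56), and so did TUBB2A (0.32 and 0.49). TUBA4A (-0.42 and -0.39), TUBB3 (-0.46 and -0.35) and TUBA1C (-0.11 and -0.38) fell in both. TUBB6 fell in empty-vector cells (-0.23) and did not pass in USP18 cells (0.032, adjusted p = 0.627). Interaction with USP18 called 5 members (27.7% of genes either way): the fall was deeper in USP18 cells for TUBA1B (log2 difference -0.57, SE 0.053, adjusted p = 9.3e-08), TUBB (log2 difference -0.46, SE 0.050, adjusted p = 7.0e-07), TUBA1C (-0.27) and TUBB4B (-0.20), and the difference was positive for TUBB6 (0.26). The change of TUBB2B was not called as different between the vectors, with an interval of the difference of -0.21 to 0.20 (95%, log2). Without replicate 3 of the empty-vector vehicle group, TUBA1C was no longer called in empty-vector cells (-0.058, 9 of 10 called), nor TUBB6 in the interaction (0.19, 4 called). Without replicate 1 of USP18 cells with CP14 at 5 µM, TUBB6 was called in USP18 cells (0.13). Counted as 1 gene, TUBA1A, TUBA1B and TUBA1C fell by 0.50 in empty-vector and 0.92 in USP18 cells (log2), a sum that is mostly TUBA1B and so does not bear on the rise of TUBA1A. In bulk RNA, fewer messages per cell and fewer cells that make them cannot be told apart.

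**Figure D3:**
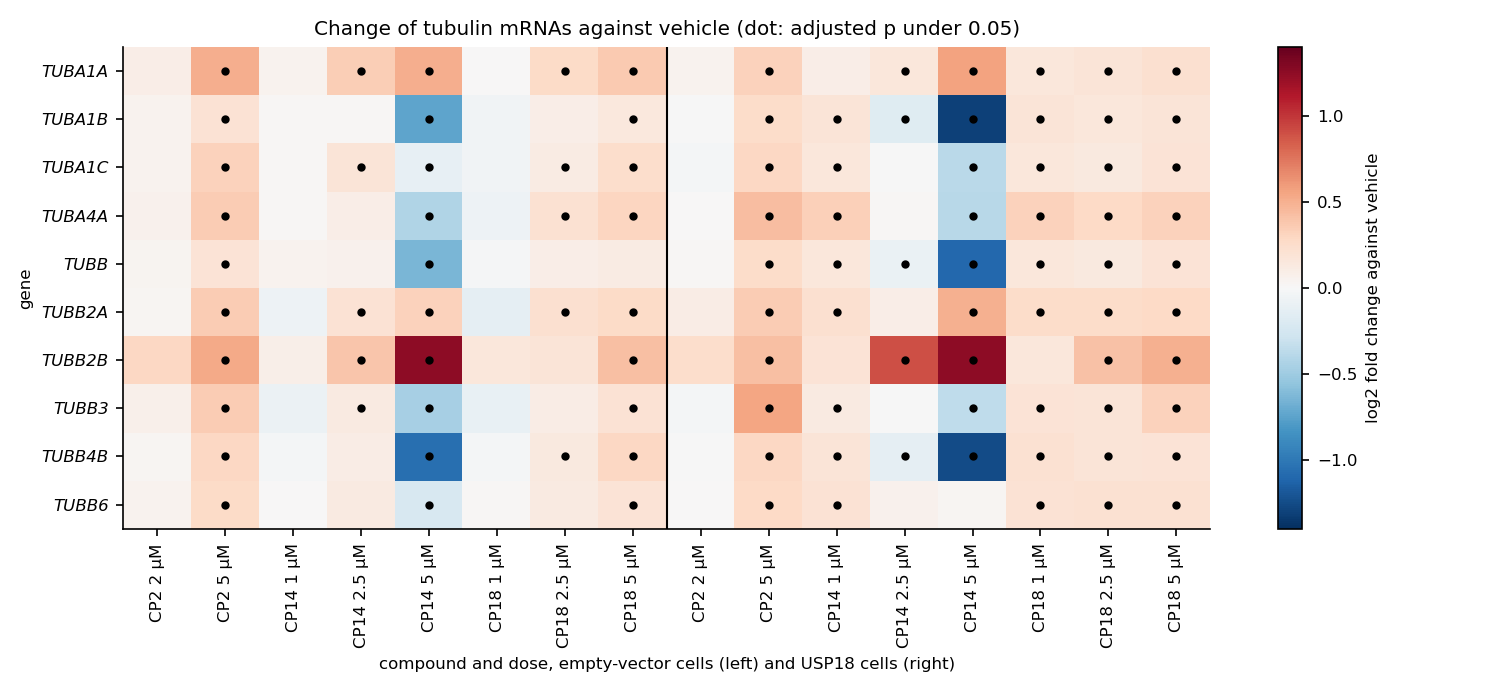
Log2 fold change of each tubulin gene against vehicle of the same vector, for every compound and dose. Dots mark an adjusted p under 0.05 in the edgeR quasi-likelihood test.

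Within each class the shares shifted accordingly, as percent of CPM per kilobase. TUBA1B went from 72.9, 72.8 and 72.4% of the alpha messages with vehicle to 62.7, 62.4 and 62.9% with CP14 at 5 µM in empty-vector cells, and from 74.7, 74.3 and 74.8% to 59.5, 57.1 and 57.7% in USP18 cells. Its share was lower in all 3 treated libraries with either vector. Shares were higher for TUBA1C, from a mean of 18.4% ± 0.170 to 24.6% ± 0.470 in empty-vector cells and from 19.2% ± 0.345 to 28.4% ± 0.415 in USP18 cells, and for TUBA1A, from 3.26% ± 0.0990 to 6.69% ± 0.214 and from 3.24% ± 0.00350 to 9.20% ± 0.592. TUBA4A went from 5.65% ± 0.148 to 6.09% ± 0.105 and from 2.89% ± 0.0916 to 4.25% ± 0.449, in the same order of cells. Among beta messages, TUBB4B went from 32.0% ± 0.0783 to 25.0% ± 0.614 in empty-vector cells and from 37.8% ± 0.0252 to 32.0% ± 1.37 in USP18 cells, while TUBB went from 58.7% ± 0.0872 to 61.0% ± 0.358 and from 55.0% ± 0.196 to 51.8% ± 2.31. TUBB2B stayed a small part, from 0.306% ± 0.0120 to 1.183% ± 0.0137 and from 0.443% ± 0.0261 to 2.13% ± 0.0215. TUBB2A went from 1.81% ± 0.0570 to 3.68% ± 0.350 and from 1.44% ± 0.0973 to 4.09% ± 0.453. TUBB3, the class III gene, went from 3.65% ± 0.0681 to 4.29% ± 0.0961 and from 2.01% ± 0.0261 to 3.18% ± 0.123, and TUBB6 from 3.46% ± 0.0974 to 4.81% ± 0.125 and from 3.24% ± 0.0527 to 6.70% ± 0.512. Each of the less abundant beta genes thus held a larger share after treatment, with either vector. Smaller shifts came with other treatments: in empty-vector cells the share of TUBA1B was below every vehicle library with CP14 at 2.5 µM (70.3, 70.4 and 70.3%), CP2 at 5 µM (70.7, 70.3 and 70.4%), CP18 at 5 µM (70.8, 71.0 and 71.1%) and CP18 at 2.5 µM (71.9, 71.7 and 71.7%). In USP18 cells it was so with CP14 at 2.5 µM (71.4, 72.2 and 72.7%) and CP2 at 5 µM (74.0, 73.6 and 74.2%). In the other groups it overlapped that with vehicle. These shares depend on the length assigned to each gene, and TUBB6 moved by over 1.5 times: with the longest transcript in place of merged exons it held 7.40% and 10.4% with CP14 at 5 µM. With vehicle in empty-vector cells TUBA1B then held 65.9%, and the order of TUBB3 and TUBB6 turned, to 4.602% and 5.42%.

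**Figure D4:**
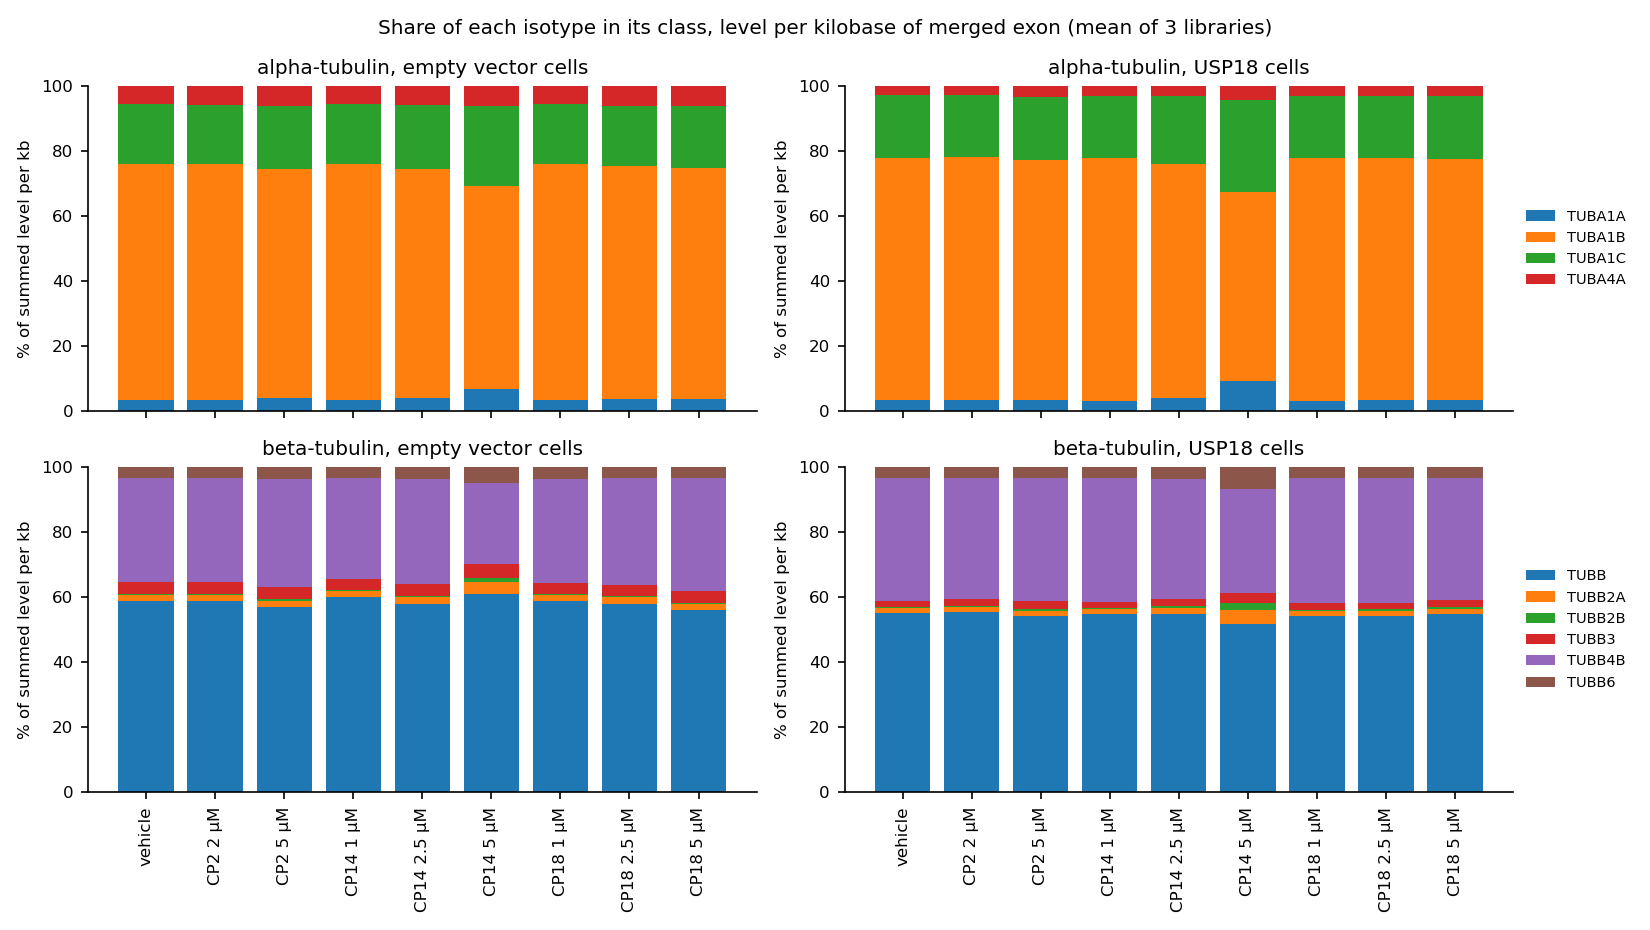
Share of each isotype within the alpha and beta messages, per kilobase of merged exon, in every group. Bars are means of 3 libraries.

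The compounds were compared directly in 10 pairs at matched doses. Between CP14 and CP18 at 1 µM edgeR called 0 of 10 members in empty-vector cells (0.0191% of genes; 1 at an unadjusted p under 0.05, 0 by DESeq2) and 0 in USP18 cells (0.0191%; 0 at an unadjusted p under 0.05, 0 by DESeq2), with the widest 95% intervals of the log2 difference those of TUBB2B, -0.31 to 0.15 and -0.18 to 0.24. At 2.5 µM members were called in USP18 cells alone, and whether the difference between the compounds depends on the vector was not tested. In empty-vector cells edgeR called 0 (1.80%; 4 at an unadjusted p under 0.05, 1 by DESeq2; widest interval -0.038 to 0.45, TUBB2B), and 1 without replicate 1 of USP18 cells with CP14 at 2.5 µM, which shares the fit. In USP18 cells 9 of 10 differed (28.2% of genes), with TUBB2B higher under CP14 (log2 fold change 0.50, SE 0.10, adjusted p = 0.00113) and 8 lower, TUBA1B most (log2 fold change -0.33, SE 0.029, adjusted p = 4.1e-07), and TUBA1A not called (interval -0.091 to 0.059). Of all 15706 genes tested there, 2251 were higher and 2180 lower with CP14. TUBA1B libraries of USP18 cells measured 1779, 1896 and 1905 CPM with CP14 and 2382, 2333 and 2332 CPM with CP18, without overlap.

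At 5 µM CP14 stood apart from CP18 and from CP2. Against CP18, 9 of 10 members differed in empty-vector cells (57.5% of genes) and 10 in USP18 cells (64.9%). Against CP2, 8 differed in empty-vector cells (59.4%) and 9 in the USP18 cells (67.5%). In each of these comparisons 7 members were lower with CP14, the abundant TUBA1B, TUBB, TUBB4B and TUBA1C among them. Of all genes tested, 4560 of 15860 in empty-vector and 4965 in USP18 cells were lower than with CP18. Against CP2 they were 4742 of 15882 and 5382. TUBB4B differed most in empty-vector cells (log2 fold change -1.34, SE 0.052, adjusted p = 2.3e-14 against CP18) and TUBA1B in USP18 cells (log2 fold change -1.49, SE 0.043, adjusted p = 3.1e-16 against CP18, -1.58 against CP2). TUBB2B was higher with CP14 in all of them, from 0.73 to 0.84. TUBA1A, which rose with each compound at this dose, was not called between CP14 and CP2 in empty-vector cells (interval -0.12 to 0.12). Between CP18 and CP2 at 5 µM edgeR called 0 in empty-vector cells (0.0257% of genes; 2 at an unadjusted p under 0.05, 0 by DESeq2) and 0 in USP18 cells (0.00641%; 2 at an unadjusted p under 0.05, 1 by DESeq2), with the widest intervals those of TUBB2B, -0.35 to 0.14 and -0.14 to 0.31. The nearest to a difference was TUBB3 in USP18 cells, with 122, 115 and 112 CPM under CP18 and 136, 139.5 and 134 CPM under CP2 (log2 fold change -0.23, SE 0.049, adjusted p = 0.291). It was called with no filter on low counts (-0.23), by DESeq2 (-0.23) and in one fit of all 54 libraries (-0.22). In USP18 cells 9 of 10 members were lower with CP18 than with CP2, and the libraries of 7 did not overlap. In empty-vector cells these numbers were 9 and 3. The shares of all genes that were lower or did not overlap were not counted, so these numbers are no result about the tubulins. All comparisons with vehicle share the vehicle libraries of their vector, so their counts are not independent of each other.

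Side by side against the same vehicles in USP18 cells, TUBB3 changed by 0.55 with CP2, 0.32 with CP18 and -0.35 with CP14 at 5 µM (log2 fold change). TUBA1C, with the same compounds and dose, changed by 0.29, 0.19 and -0.38, and TUBB2A by 0.36, 0.28 and 0.49. Across the 18 group means of log2 CPM, given as a description in which groups share vector and treatment, TUBA4A and TUBB3 kept together (Pearson r = 0.987), as did TUBA1B and TUBB4B (0.980) and TUBA1B and TUBB (0.910). TUBB2B ran opposite to TUBA4A (-0.750) and to TUBB (-0.746), and TUBA1A was nearest to TUBB2B (0.712). Among 9958 other genes of at least 10 CPM, those whose group means ran most like TUBA1C were PBDC1 (0.955), EXOSC3 (0.952), NUDC (0.948), BAG2 (0.947) and ANAPC7 (0.945). Most like TUBA4A were AP2M1 (0.988), ZC3H18 (0.981), C3orf14 (0.981), RPUSD1 (0.975) and TIMM21 (0.974). Most like TUBB were IDH3A (0.990), ADI1 (0.990), DHX9 (0.990), POLR3K (0.988) and HNRNPR (0.986).

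Other tubulins and genes that act on tubulin were read as lists. With CP14 at 5 µM, 31.0% of all genes rose and 32.1% fell in empty-vector cells, against 34.4% and 34.3% in the USP18 cells, so counts near these shares are no result about a list. Of the other tubulin genes 4 of 9 could be tested: the centriolar epsilon-tubulin TUBE1 rose (1.68 in empty-vector and 1.10 in USP18 cells, log2 fold change), the beta-tubulin TUBB4A (-1.17 and -1.49) and the delta-tubulin TUBD1 (-0.60 and -1.03) fell, and TUBAL3 did not pass. In the gamma-tubulin ring complex, which starts new microtubules, 2 of 13 rose and 8 fell in empty-vector cells and 2 rose and 9 fell in USP18 cells (median log2 fold change -0.24 and -0.37, against 0.0050 and 0.011 over all genes), gamma-tubulin TUBG1 among the falls (-0.46 and -0.97). Among chaperones and cofactors that fold tubulin, 3 of 23 rose and 11 fell in empty-vector cells and 3 rose and 15 fell in USP18 cells (median log2 fold change -0.023 and -0.34, against 0.0050 and 0.011 over all genes), with the prefoldin subunit PFDN2 up (1.35 and 1.56), and the cofactor TBCD (-0.92 and -0.91) and the chaperonin subunit CCT8 (-0.39 and -0.81) down. Of the genes for autoregulated decay of tubulin messages, TTC5, SCAPER and the CCR4-NOT complex, 0 of 10 rose and 5 fell in empty-vector cells and 2 rose and 6 fell in USP18 cells (median log2 fold change -0.082 and -0.29, against 0.0050 and 0.011 over all genes). TTC5 itself measured 29.7, 32.7 and 29.2 CPM with vehicle and 22.2, 24.4 and 24.2 CPM with CP14 at 5 µM in USP18 cells (-0.36, adjusted p = 2.9e-05), and also fell in empty-vector cells (-0.17, adjusted p = 0.0222). Among enzymes that modify tubulin, 3 of 20 rose and 7 fell in empty-vector cells and 5 rose and 6 fell in USP18 cells (median log2 fold change -0.051 and 0.043, against 0.0050 and 0.011 over all genes), the detyrosinating VASH2 falling most (-1.90 and -2.09) and the acetyltransferase ATAT1 (0.43 and 0.54) and deacetylase SIRT2 (0.25 and 0.88) rising. Of the microtubule-associated proteins, 10 of 33 rose and 14 fell in empty-vector cells and 9 rose and 13 fell in USP18 cells (median log2 fold change -0.041 and -0.040, against 0.0050 and 0.011 over all genes), with MAP1B up (1.26 and 1.41) and the depolymerase KIF2C down (-1.81 and -1.48). With CP2 at 5 µM, where all 10 tubulins rose, 10 of 23 folding genes rose in empty-vector cells (5.31% of all genes) and 10 in USP18 cells (8.65%). With CP18 at 5 µM, 9 of 23 rose in empty-vector cells (4.09%) and 5 in the USP18 cells (4.32%). At other doses in USP18 cells the numbers that rose were 14 with CP18 at 1 µM (7.74%), 11 with CP18 at 2.5 µM (7.19%) and 11 with CP14 at 1 µM (7.40%), and with CP14 at 2.5 µM 6 rose (16.3%) and 8 fell (16.4%). In empty-vector cells 7 rose with CP18 at 2.5 µM (2.34%) and 5 with CP14 at 2.5 µM (7.06%).

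Genes of the G2 and M phases of the cell cycle, when the spindle is built, were read in the same groups. With CP14 at 5 µM, against the shares of all genes given above, 28 of 28 fell in empty-vector cells (median log2 fold change -1.74) and 28 of 28 in USP18 cells (-1.76). Their summed level was 4460.0, 4493 and 4671 CPM with vehicle and 1272, 1201 and 1315 CPM with CP14 at 5 µM in empty-vector cells, and 4669, 4652 and 4622 and 1393, 1333 and 1303 CPM in USP18 cells, TOP2A being the most abundant with vehicle and 0 of the 28 being at 0. The summed G2/M levels with CP14 at 5 µM overlapped between the vectors. With CP14 at 2.5 µM, 21 of 28 fell in USP18 cells (16.4% of all genes; median -0.22), where TUBA1B, TUBB and TUBB4B fell, to sums of 3545, 4103 and 4325 CPM, all below vehicle and lowest in replicate 1, as was TUBA1B. In empty-vector cells at that dose 1 of 28 rose (7.06%; median 0.025), with sums of 4465, 4613 and 4584 CPM. Against CP18 at 2.5 µM in USP18 cells, 27 of 28 were lower with CP14, as were 2180 of all 15706 genes tested. The median of the 28 was -0.36, against 0.012 over all genes. At 1 µM in USP18 cells 7 of 28 rose with CP14 (7.40%; median 0.070) and 8 with CP18 (7.74%; median 0.076), to sums of 4825, 5091 and 4694 and 4797, 4881 and 4800.4 CPM. With CP18 at 2.5 µM 14 rose in those cells (7.19%) and 1 in empty-vector cells (2.34%). With CP2 at 5 µM, 15 of 28 rose in empty-vector (5.31%) and 14 in USP18 cells (8.65%), to sums of 4932, 5190.2 and 4665 and 5011, 5128 and 5240.4 CPM, and with CP18 at 5 µM 12 and 8 rose (4.09% and 4.32%), to 5037, 5091 and 4683 and 5156, 4990.3 and 5165 CPM. The part of these genes in the tubulin results was not tested.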

How the data were processed

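The authors deposited RSEM expected counts, unscaled, of 58870 genes in 54 libraries, and none of the table's sample columns was left unused. By the labels, libraries were made with poly(A) capture and a stranded kit, and reads were demultiplexed with bcl2fastq, trimmed with cutadapt 1.18, aligned with STAR 2.7.0f to hg38 and counted with RSEM 1.3.1. The study's methods instead describe ribosomal RNA depletion and a mouse annotation for counting, while the identifiers in the table are human. Groups were read from the labels (vector, compound, dose). Library totals had a median of 19701304 counts. Between replicates, chi-square per gene was 1.80 to 11.1 over the 54 pairs, above counting noise, so none is a copy of another.

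Expected counts were rounded to whole numbers and tested by the quasi-likelihood F-test of edgeR 4.0.16 (R 4.3.3, limma 3.58.1) after TMM scaling, keeping genes that pass filterByExpr at min.count 10 and min.total.count 15, with Benjamini-Hochberg adjustment over all genes tested. Each compound and dose was fitted with the vehicle libraries of both vectors (12 libraries), with a contrast for each vector and their interaction. Compounds were compared in fits of the 12 libraries of each pair and dose, and the vectors with vehicle in a fit of 6, making 35 comparisons. A gene was called at an adjusted p under 0.05 at any size. Gene models, lengths and sequences were taken from GENCODE 44 and the hg38 genome with Python 3.11.15, pandas 2.3.3, numpy 2.4.6 and matplotlib 3.10.9.

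All 10 tubulins, USP18 and TTC5 are named. Of the lists (other tubulins, gamma-tubulin ring complex, tubulin folding, message autoregulation, tubulin-modifying enzymes, microtubule-associated proteins, G2/M genes), names were drawn from up to 3 of the largest rises and 3 of the largest falls among called genes, and markers of epithelium, A549 cells, alveolar type II cells, fibroblasts, immune cells and endothelium were read as levels. For TUBA1C, TUBA4A and TUBB the 5 genes with the highest Pearson correlation over the 18 group means of log2 CPM are named. The members and lists were chosen with earlier results of these data known. Alternatives were RLE size factors, no filter, DESeq2 1.42.0 (Wald test, no shrinkage), a stricter filter (10 counts or more in each library), replicate number as a block, one fit of all 54 libraries, leaving out each library, summing genes that share reads, library totals without TMM, and lengths from the longest transcript.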

Additional observations from a re-analysis of the deposited data

Results flagged for a closer look

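These tubulin genes changed by a different amount in USP18 cells than in empty-vector cells under the same compound and dose, by the interaction test at an adjusted p under 0.05. Values are the change in USP18 cells minus that in empty-vector cells, on the log2 scale. With CP14 at 1 µM the difference was 0.32 for TUBA4A, 0.22 for TUBB3 and 0.20 for TUBB4B. With CP14 at 2.5 µM it was -0.19 for TUBA1A, -0.19 for TUBA1B, -0.19 for TUBA1C, -0.16 for TUBB, 0.51 for TUBB2B and -0.23 for TUBB4B. With CP14 at 5 µM it was -0.57 for TUBA1B, -0.27 for TUBA1C, -0.46 for TUBB, -0.20 for TUBB4B and 0.26 for TUBB6. With CP18 at 1 µM it was 0.23 for TUBA1B, 0.20 for TUBA1C, 0.39 for TUBA4A, 0.18 for TUBB, 0.38 for TUBB2A, 0.29 for TUBB3 and 0.24 for TUBB4B. Of all genes, the interaction called 5.79%, 8.00% and 27.7% with CP14 at 1, 2.5 and 5 µM and 7.19% with CP18 at 1 µM. Leaving out 1 library gave 3 to 7, 1 to 6, 4 to 5 and 4 to 7 tubulins called, in the same order. All comparisons with 1 vector share its vehicle libraries, and groups of 3 libraries were not tested for outlying samples.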

How the results depend on the processing

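Calls of single members kept direction under every setting but the summing of genes that share reads. Out of 350 log2 fold changes, 350 kept their side of the threshold with RLE size factors, 336 with no filter, 344 with at least 10 counts in every library, 339 by DESeq2 and 343 in one fit of all 54 libraries. With replicate number as a block 347 did, and no count of members called moved by more than 1.5 times. Same-numbered replicates were no more alike than others (median r of their deviations -0.00763 and -0.00295 over 153 group pairs), so replicate numbers were not used as pairs. Only 1 of 27 comparisons of a pair of groups, CP18 against CP2 at 5 µM in empty-vector cells, had all 3 over 0.1, and its blocked count was 0 members, as without the block. Leaving out 1 library, 3972 of 4140 kept their side, 138 no longer passed and 30 newly passed. Mean CPM without TMM moved by more than its spread in 11 of 180 cases.

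Counts of members called moved as follows, and the cause was not tested. The interaction of CP2 at 5 µM went from 0 to 1 with no filter and to 1 by DESeq2. The interaction of CP14 at 1 µM went from 3 to 8 with no filter, to 5 with at least 10 counts in every library and to 2 in one fit of all 54 libraries. CP18 at 2.5 µM in empty-vector cells went from 5 to 3 in one fit of all 54 libraries. CP14 against CP18 at 2.5 µM in empty-vector cells went from 0 to 1 with at least 10 counts in every library and to 1 by DESeq2. CP18 against CP2 at 5 µM in USP18 cells went from 0 to 1 with no filter, to 1 by DESeq2 and to 1 in one fit of all 54 libraries. Leaving out each library in turn gave a range of 0 to 1 for CP2 at 2 µM in empty-vector cells, 0 to 1 for the interaction of CP2 at 5 µM, 3 to 7 for the interaction of CP14 at 1 µM, 3 to 9 for CP14 at 2.5 µM in empty-vector cells and 1 to 6 for its interaction. The range was 4 to 9 for CP18 at 1 µM in USP18 cells and 4 to 7 for its interaction, 3 to 9 for CP18 at 2.5 µM and 4 to 10 for CP18 at 5 µM in empty-vector cells, and 0 to 1 for CP14 against CP18 at 2.5 µM in empty-vector cells.

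Summing genes that share reads reversed TUBA1A with CP14 at 2.5 µM in USP18 cells (-0.12, log2 fold change), TUBA1A with CP14 at 5 µM in empty-vector cells (-0.50) and in the USP18 cells (-0.92), and TUBB2B in USP18 against empty-vector cells with vehicle (-0.21), since each sum is mostly the more abundant partner, and so it does not show how reads were divided.

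With 3 replicates a group, small differences between vectors can be missed, and the lone vector populations cannot separate USP18 from other differences between them. Depth was enough for every member in every library, TUBB2B being the least counted. Message levels say nothing of tubulin protein, dimers or polymer, which were not measured. Read sharing limits TUBA1A, TUBA1B, TUBA1C, TUBB2A and TUBB2B. Shares within a class depend on gene length: with the longest transcript, 34 of 40 moved by more than their spread.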
